A study of Mus musculus with 7 samples.

Results

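The 7 genes described here are the constant region gene of the kappa light chain, Igkc, the 3 lambda constant region genes Iglc1, Iglc2 and Iglc3, and the 3 lambda variable genes Iglv1, Iglv2 and Iglv3. They were chosen by symbol, and all 7 were found among the 48795 genes of the deposited table. The table holds 7 bulk RNA sequencing libraries of B-lineage cells sorted from the spleen of wild type female C57BL/6 mice aged 8 to 12 weeks, at day 10 of a response to sheep red blood cells (SRBC), a T cell-dependent particulate antigen given intravenously. Spleen cells were depleted with CD43 beads before sorting. Memory B cells (MBCs, 3 libraries) were gated as B220+, CD138- and IgD- cells with CD38 and CD273 on the surface, and plasma cells (PCs, 4 libraries) as B220lo CD138+ IgD- cells. By the labels both groups share strain, genotype, sex and immunization, and differ in the gate. The labels do not state if a library came from 1 mouse or from a pool, so the spread between libraries may be technical in part.

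An antibody pairs 2 identical heavy chains with 2 identical light chains, and each B cell uses either a kappa or a lambda light chain. The kappa locus is normally rearranged ahead of the lambda locus, and kappa is the more abundant light chain in mice. Each light chain transcript joins a variable segment, a short joining segment and a constant region, so a spliced transcript gives reads to a variable gene at its 5′ end and to a constant gene at its 3′ end. B cells carry the light chain in their antigen receptor, and PCs make it in bulk for secretion.

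In GRCm38, the build named in the submitters' processing notes, Igkc lies on the plus strand at chr6:70726435-70726966 and is a single exon. The lambda genes lie on the minus strand of chromosome 16. In the direction of transcription the order of the GENCODE M21 annotation is Iglv2 (chr16:19260401-19260859), Iglv3 (chr16:19241207-19241690), Iglc2 (chr16:19198396-19200351), Iglv1 (chr16:19085017-19085500), Iglc3 (chr16:19065230-19065681) and Iglc1 (chr16:19061618-19062071). Each variable gene has 2 exons. Iglv2 and Iglv3 thus sit upstream of Iglc2, and Iglv1 sits upstream of Iglc3 and Iglc1.

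How far the lambda genes can be told apart by a read depends on their sequence, so the coding parts of the most similar copies are given from the GENCODE M21 transcripts. Bases 1 to 300, counted from the first coding base, are shown of each. In the Iglc2 and Iglc3 lines, capitals mark bases that differ from, or have no partner in, the other copy. In the Iglc1 line they mark differences from Iglc2.
Iglc2: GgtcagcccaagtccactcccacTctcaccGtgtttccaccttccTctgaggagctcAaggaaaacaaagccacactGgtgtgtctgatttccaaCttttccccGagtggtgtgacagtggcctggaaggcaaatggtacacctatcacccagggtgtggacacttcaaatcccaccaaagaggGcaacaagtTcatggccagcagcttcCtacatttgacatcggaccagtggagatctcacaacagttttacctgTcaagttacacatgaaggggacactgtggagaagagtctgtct
Iglc3: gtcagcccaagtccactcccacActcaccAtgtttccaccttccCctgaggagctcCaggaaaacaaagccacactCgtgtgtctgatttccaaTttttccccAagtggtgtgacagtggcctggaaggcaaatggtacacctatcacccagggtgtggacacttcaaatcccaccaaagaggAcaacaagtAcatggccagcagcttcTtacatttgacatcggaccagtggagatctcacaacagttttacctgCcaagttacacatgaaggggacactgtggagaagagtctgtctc
Iglc1: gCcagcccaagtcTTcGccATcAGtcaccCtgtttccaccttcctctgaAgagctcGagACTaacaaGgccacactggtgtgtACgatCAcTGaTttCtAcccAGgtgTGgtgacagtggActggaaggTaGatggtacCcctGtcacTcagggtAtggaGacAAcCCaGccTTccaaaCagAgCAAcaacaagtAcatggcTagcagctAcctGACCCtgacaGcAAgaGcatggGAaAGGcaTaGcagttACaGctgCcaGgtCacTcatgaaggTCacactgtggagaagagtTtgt

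The coding sequences of Iglc2 and Iglc3 were identical at 96.2% of aligned bases, with 11 substitutions and 1 unpaired base, and their longest identical run was 79 bases. Iglc1 was 73.4% identical to Iglc2 and 74.2% to Iglc3, and it shared no stretch of 50 bases with either. Igkc was at most 53.9% identical to any lambda constant gene. Of the 50-base windows of the Iglc2 transcript, 10.5% also occur in that of Iglc3. Iglc1 and Igkc are therefore separable by sequence, whereas part of the reads of Iglc2 and Iglc3 is not.

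The pair Iglv1 and Iglv2 is as similar, and the results on variable gene use turn on it. Bases 1 to 300 of the coding part are shown, with capitals at the 8 positions that differ there.
Iglv1: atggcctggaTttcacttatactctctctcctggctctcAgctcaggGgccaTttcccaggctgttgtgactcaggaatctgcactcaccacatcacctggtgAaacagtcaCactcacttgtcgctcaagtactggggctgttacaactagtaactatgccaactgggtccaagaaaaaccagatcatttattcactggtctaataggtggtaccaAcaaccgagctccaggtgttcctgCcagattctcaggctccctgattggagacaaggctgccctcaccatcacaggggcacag
Iglv2: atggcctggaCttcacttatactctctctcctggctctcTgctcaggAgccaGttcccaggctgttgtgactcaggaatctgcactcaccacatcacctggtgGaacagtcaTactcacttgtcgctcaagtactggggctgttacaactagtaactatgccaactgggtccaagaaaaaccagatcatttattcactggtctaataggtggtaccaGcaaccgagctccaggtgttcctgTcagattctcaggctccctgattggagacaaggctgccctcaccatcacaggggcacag

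Iglv1 and Iglv2 were identical at 96.9% of 351 coding bases, with 11 substitutions, and 22.2% of the 50-base windows of the Iglv1 transcript occur in Iglv2. Iglv3 was 53.6% identical to Iglv1 and shared no window of 50 bases with it. Values of single members of the pairs Iglc2 and Iglc3, and Iglv1 and Iglv2, are uncertain to the extent that the quantification divided shared reads between them. The read length is not given in the sources used here.

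Values were deposited as TPM (transcripts scaled to a fixed library total), which count reads per length of gene and so allow levels of different genes to be compared within a library. All columns sum to the same total, and the immunoglobulin genes together took 1.65% to 3.16% of it in MBCs and 49.4% to 55.9% in PCs. For comparisons of single genes the libraries were therefore scaled to one another by a median ratio, giving scaled TPM. Per-library values are given below in the order of the replicate numbers, 1 to 3 for MBCs and 1 to 4 for PCs. A TPM of 1 for a transcript of 1 kb stood for an estimated 6.22 to 11.6 reads in the MBC libraries and 9.34 to 16.4 in the PC libraries. In part of the genes of the gate, the library labelled MBC replicate 3 went against its label. Cd38 was at 6.77 scaled TPM in it against 130.3 and 185.7 in the other MBC libraries, and Pdcd1lg2 (CD273) at 2.59 against 43.3 and 24.4. Other genes of the gate went with the label. Ptprc (B220 and other CD45 forms) was at 529 in it, 970 and 1526 in the other MBC libraries and 262 to 315 in PCs. Sdc1 (CD138) was at 0.058 in it and 49.6 to 78.1 in PCs. Ighd, for the IgD- gate that both groups share, was at 9.55 in it and 14.2 to 38.8 in PCs. The other MBC libraries, at 85.8 and 39.9, lay above every PC library for Ighd. Pearson's r of this library with the PC libraries over all genes tested was 0.70 to 0.777, while the other MBC libraries had 0.537 to 0.564 with PCs. Its r with those MBC libraries (0.681 and 0.687) was no lower than their own (0.675). More genes were above 0 in it, 18061 against 12983 and 11527 in the other MBC libraries and 14463 to 16768 in PCs. A TPM of 1 at 1 kb stood for an estimated 11.6 reads in it, against 6.22 and 6.99 in those MBC libraries. The part of depth and detection in these correlations was not tested. Values without MBC replicate 3 are given for the light chain results below that it moved most and for calls that it changed.

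Igkc was among the most abundant transcripts of every library. Its TPM was 10497, 7120 and 5513 in the 3 MBC libraries, against 195428, 169246, 143467 and 150011 in the 4 PC libraries. It ranked 6th or 7th of all genes in MBCs and 1st or 2nd in PCs, and no PC library came near an MBC library. Igkc alone took 0.771% ± 0.254 (SD, n = 3) of the TPM of an MBC library and 16.5% ± 2.33 (SD, n = 4) of that of a PC library. In scaled TPM it rose from 4415 ± 1573 (SD, n = 3) in MBCs up to 236148 ± 56577 (SD, n = 4) in PCs, or by 5.78 in log2 fold change on the log2(scaled TPM + 1) scale (SE 0.57, limma, adjusted p = 2.5e-04). This call was lost in 1 of 16 alternatives, when no gene was filtered out (same fold change, limma, adjusted p = 0.289).

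The 3 lambda constant region genes encode the constant domains of the lambda 1, lambda 2 and lambda 3 chains. Iglc1 was the most abundant of them in every library, at 777, 1195 and 474 TPM in the 3 MBC libraries, against 12701, 7941, 10094 and 8880 TPM in the 4 PC libraries. Iglc2 was at 410, 184 and 182 TPM in MBCs and at 2793, 4129, 3347 and 4856 TPM in PCs. Iglc3 was at 303, 659 and 436 TPM in MBCs and at 4927, 2741, 2679 and 3915 TPM in PCs. The order of Iglc2 and Iglc3 was not fixed: Iglc3 exceeded Iglc2 in MBC replicates 2 and 3 and in PC replicate 1, and the reverse held in the other 4 libraries. In scaled TPM the log2 fold changes from MBCs to PCs were 5.00 (SE 0.47) for Iglc1, 5.26 (SE 0.40) for Iglc2 and 4.28 (SE 0.45) for Iglc3, with limma adjusted p-values of 1.9e-04, 5.8e-05 and 3.3e-04.

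The lambda variable genes differed more from one another. Iglv1 was at 307, 598 and 180 TPM in the 3 MBC libraries, against 9026, 6195, 7388 and 7673 TPM in the 4 PC libraries. Iglv2 was at 74.2, 61.9 and 12.3 TPM in MBCs and at 2183, 2638, 2418 and 3724 TPM in PCs. Iglv3 was at 49.2, 45.2 and 67.8 TPM in MBCs and at 729, 819, 1080 and 1339 TPM in PCs. Iglv1 led in every library, and Iglv3 was the lowest of the 3 in all but the library labelled MBC replicate 3, where Iglv2 lay below it. Iglv2 had the largest log2 fold change of the 7 genes, 7.35 (SE 0.60), followed by Iglv1 at 5.86 (SE 0.50) and Iglv3 at 5.46 (SE 0.30), with limma adjusted p-values of 9.1e-05, 1.2e-04 and 1.1e-05. Without the library labelled MBC replicate 3 the log2 fold change of Iglv2 was 6.49 (limma, adjusted p = 3.7e-05). The reads behind Iglv2 in MBCs were few, an estimated 72, 63 and 21 in replicates 1 to 3, whereas each PC library held at least 3525.

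All 7 genes were thus called higher in PCs and had no overlap between the groups. Of all 11573 genes tested, 6.41% were called higher and 8.55% in either direction, and 21.7% had groups that did not overlap. Among the 229 immunoglobulin genes tested, 83.4% were called higher, against 4.86% of the genes outside that class, so the rise of the 7 is shared by most genes of the class. The 229 include genes that reached the filter, 1 TPM in at least 3 libraries, through PC libraries alone, such as Igkv4-78. In bulk RNA, more cells of a kind and more RNA per cell cannot be told apart.

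**Figure D1:**
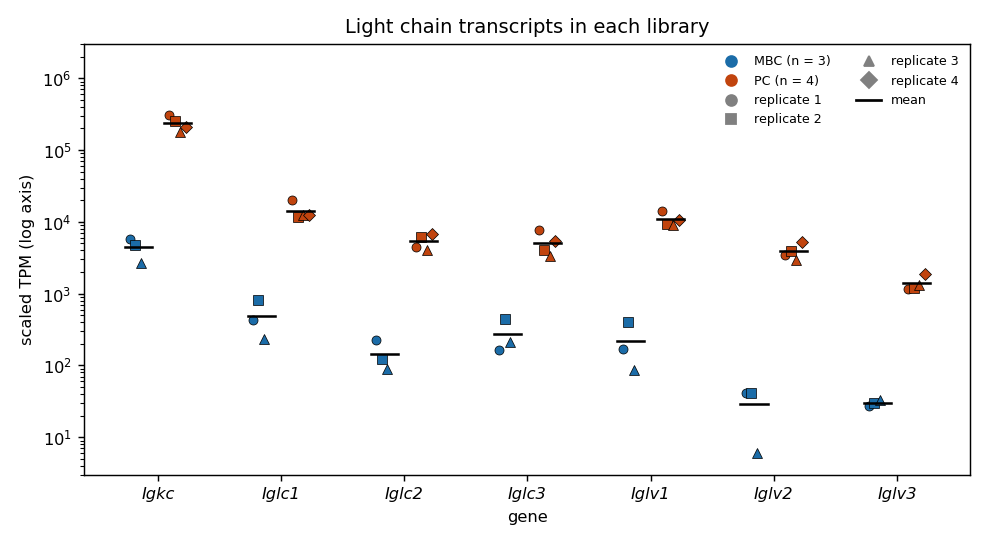
Scaled TPM of the 7 light chain genes (log axis) in each library, with MBC libraries in blue, PC libraries in red, a marker shape for each replicate number and a black line at the group mean. For every gene the lowest PC library lies above the highest MBC library, and Iglv2 in MBC replicate 3 is the lowest point, at 6.01 scaled TPM.

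The balance of lambda and kappa can be read within a library and needs no scaling. The summed TPM of Iglc1, Iglc2 and Iglc3 per TPM of Igkc was 0.142, 0.286 and 0.198 in the 3 MBC libraries, against 0.104, 0.0875, 0.112 and 0.118 in the 4 PC libraries. Every MBC library lay above every PC library, and the MBC libraries also spread more widely. Expressed as a share of light chain constant region TPM, lambda made up 17.1% ± 4.93 (SD, n = 3) for MBCs, against 9.53% ± 1.08 (SD, n = 4) for PCs. On the log2 scale the ratio differed by -0.93 (PC minus MBC), so that the geometric mean was 1.91-fold higher in MBCs (exact two-sided permutation test over 35 assignments of the libraries, p = 0.0286). This is the smallest p the design allows, and adjusted over the 9 library measures tested it was 0.0857, so the difference did not pass 0.05 after adjustment. Defined as double the smaller tail, the exact permutation p was 0.0571.

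Set against the PC level, Igkc was the lower of the pair in every MBC library. Igkc in MBC replicates 1 to 3 stood at 6.38%, 4.33% and 3.35% of its mean TPM in PCs, and the lambda constant sum at 8.63%, 11.8% and 6.33%. The difference in ratio was present without the library labelled MBC replicate 3 (-0.94) and within the title code prefix that holds 2 MBC and 3 PC libraries (-1.0, exact permutation p = 0.10, the smallest possible there). The titles carry 4 codes, 3 of which occur in both groups, and in each of the 3 pairs so formed the ratio was higher in MBCs, at 0.142 against 0.104, 0.286 against 0.112 and 0.198 against 0.118. What a code stands for is not given in the labels.

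The variable region genes did not separate the groups. The summed TPM of Iglv1, Iglv2 and Iglv3 per summed TPM of the 160 kappa variable (Igkv) genes was 0.0609, 0.103 and 0.0716 in the 3 MBC libraries, against 0.0915, 0.0702, 0.0808 and 0.0949 in the 4 PC libraries. The range of the PC libraries lay within that of the MBC libraries, with means of 0.0784 ± 0.0216 (SD, n = 3) and 0.0844 ± 0.0112 (SD, n = 4). On the log2 scale the difference was 0.13 in the opposite direction (exact permutation test, p = 0.543). With all lambda genes set against all kappa genes the ratio was 0.112 to 0.196 in MBCs and 0.0798 to 0.107 in PCs. It was higher in each MBC library than in any PC library (log2 difference -0.64, exact permutation test, p = 0.0286, not adjusted). That ratio includes the constant region genes of the first ratio, so it is no separate evidence. The lambda ratio thus lay apart between the groups for constant regions and overlapped for variable regions.

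**Figure D2:**
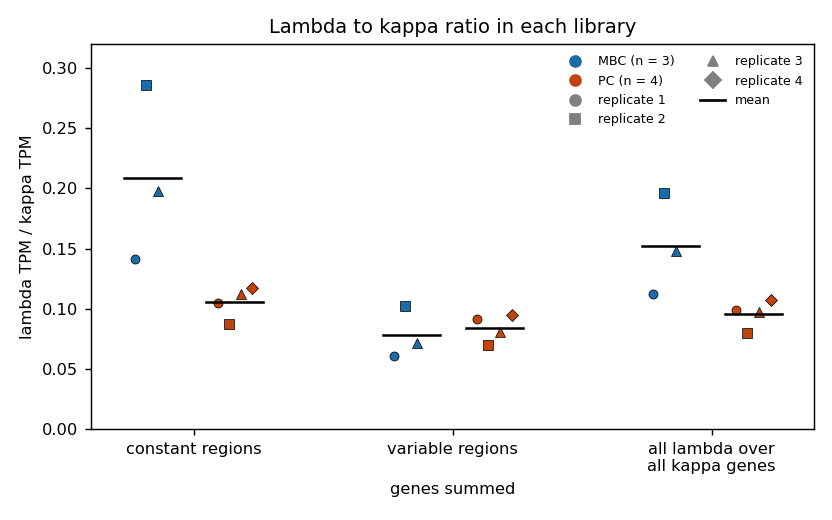
TPM of lambda genes divided by TPM of kappa genes in each library, for the constant region genes, the variable region genes and all genes of each locus, with black lines at group means. MBC libraries (blue) lie above all PC libraries (red) for constant regions and for all genes, and the groups overlap for variable regions.

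Both readings meet in the ratio of variable to constant region TPM within the lambda locus. It was 0.289, 0.346 and 0.238 in the 3 MBC libraries, against 0.585, 0.652, 0.675 and 0.721 in the 4 PC libraries. No library of one group fell in the range of the other. The geometric mean was 2.28-fold higher in PCs (log2 difference 1.19, exact permutation test, p = 0.0286, adjusted p = 0.0857). For kappa the same ratio was 0.673, 0.966 and 0.657 in MBCs and 0.668, 0.812, 0.939 and 0.895 in PCs, and the groups overlapped (log2 difference 0.13, or 0.027 with MBC replicate 3 omitted, exact permutation test with all libraries, p = 0.60, also when adjusted). For the heavy chain, added after the lambda values were seen and not tested, the summed Ighv genes per summed constant genes gave 0.681, 0.535 and 0.773 in MBCs and 1.21, 1.08, 1.28 and 1.19 in PCs. The groups did not overlap for the heavy chain, as for lambda, whereas those of kappa did. Whether the lambda and kappa ratios differed in their change was not tested.

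The same ratio was formed for each side of the lambda locus. Iglv1 per summed Iglc1 and Iglc3, the constant genes downstream of it, was 0.284, 0.323 and 0.197 in MBCs and 0.512, 0.580, 0.578 and 0.600 in PCs. Iglv2 and Iglv3 per Iglc2 was 0.301, 0.583 and 0.439 in MBCs and 1.04, 0.837, 1.05 and 1.04 in PCs. Neither of these ratios, which were also formed after the values were seen, overlapped between the groups. The number of bases taken off a transcript's length before TPM was formed, estimated from low values of genes with a single transcript, was 210 to 220 bases in the MBC libraries and 180 to 210 bases in the PC libraries. Its part in the ratio was not tested.

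**Figure D3:**
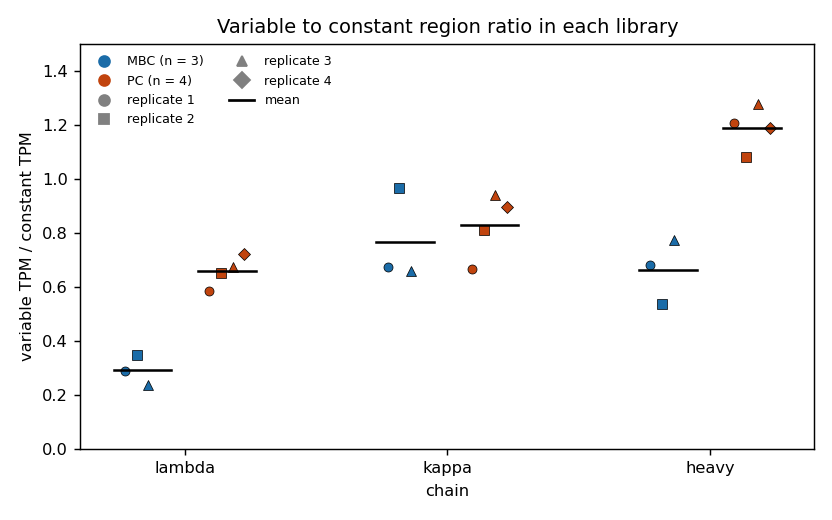
Summed TPM of variable genes divided by summed TPM of constant genes for the lambda, kappa and heavy chains in each library, with black lines at group means. The groups are apart for lambda (0.238 to 0.346 in MBCs, 0.585 to 0.721 in PCs) and for heavy chains, and overlap for kappa.

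Within lambda, no difference between the groups in the shares of the constant genes passed the test. Iglc1 made up 51.4% ± 7.68 (SD, n = 3) of the lambda constant TPM for MBCs, against 57.2% ± 6.18 (SD, n = 4) for PCs (exact permutation test, p = 0.314, adjusted p = 0.404). Iglc2 made up 27.5%, 9.01% and 16.7% in the 3 MBC libraries, against 13.7%, 27.9%, 20.8% and 27.5% in the 4 PC libraries (exact permutation test, p = 0.429, adjusted p = 0.482). Iglc3 made up 20.3%, 32.3% and 39.9% in MBCs and 24.1%, 18.5%, 16.6% and 22.2% in PCs (exact permutation test, p = 0.114, adjusted p = 0.257). The groups overlapped for all 3 genes, and Iglc2 and Iglc3, the pair that shares reads, spread most widely in MBCs. With MBC replicate 3 omitted, the difference (PC minus MBC) went from 5.79 to 1.77 percentage points for Iglc1 and from -10.5 to -5.97 for Iglc3.

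Among the variable genes, the share of Iglv2 lay apart between the groups. Iglv2 made up 17.3%, 8.78% and 4.75% of the lambda variable TPM in the 3 MBC libraries, against 18.3%, 27.3%, 22.2% and 29.2% in the 4 PC libraries. The groups did not overlap, although MBC replicate 1 and PC replicate 1 differed by little, and the mean was 14.0 percentage points higher in PCs (exact permutation test, p = 0.0286, adjusted p = 0.0857). Iglv1 made up 75.1% ± 8.49 (SD, n = 3) for MBCs, against 67.0% ± 6.54 (SD, n = 4) for PCs (exact permutation test, p = 0.229, adjusted p = 0.404). Iglv3 made up 11.4%, 6.41% and 26.1% in MBCs and 6.11% to 10.5% in PCs (exact permutation test, p = 0.286, adjusted p = 0.404). The largest Iglv3 share belonged to the library labelled MBC replicate 3, without which the difference in the Iglv3 share went from -5.89 to -0.16 percentage points and that in the Iglv2 share was 11.3 percentage points (exact permutation test, p = 0.133). With Iglv1 and Iglv2 summed, as their similarity warrants, their share was 85.4% ± 10.2 in MBCs and 91.2% ± 1.96 in PCs, and the groups overlapped.

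**Figure D4:**
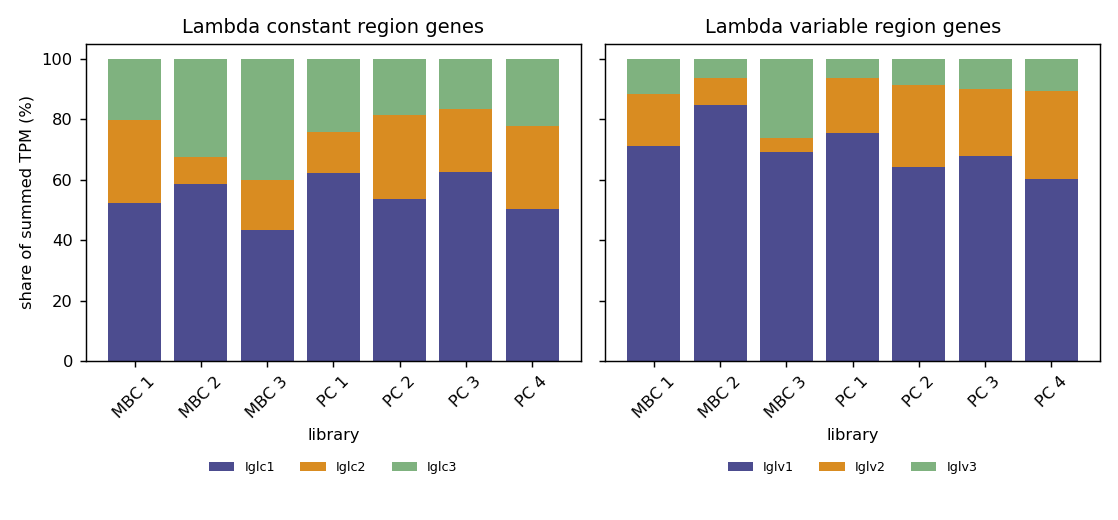
Stacked bars of the share of each gene in the summed TPM of the lambda constant genes (left) and of the lambda variable genes (right) for each of the 7 libraries. Iglc1 is the largest constant share everywhere (43.4% to 62.6%), and the Iglv2 share is 4.75% to 17.3% in MBCs and 18.3% to 29.2% in PCs.

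The remaining segments of both loci were examined as lists. All 5 lambda joining segments (Iglj1, Iglj2, Iglj3, Iglj3p and Iglj4) and all 5 kappa joining segments (Igkj1 to Igkj5) were listed at 0 in every library, although each productive light chain transcript contains such a segment, so a 0 here cannot be read as absence. Iglc4, annotated in RefSeq as a constant region pseudogene, was at 52.9, 0 and 0.79 TPM in the 3 MBC libraries, against 20.5, 8.26, 4.74 and 15.6 TPM in the 4 PC libraries, and was not called (limma, adjusted p = 0.262). Of the 160 Igkv genes 101 could be tested, of which 86 were called higher in PCs and 0 lower by limma (94 and 0 at an unadjusted p under 0.05), with a median log2 fold change of 6.18 against 0.14 over all genes tested. Beside this count stand the 6.41% called higher among all genes and the 83.4% among immunoglobulin genes. Genes were tested at 1 TPM or more in at least 3 libraries, which the PC libraries alone can meet. The count and the median thus include genes that passed only through the group where they are high, such as Igkv4-78, at 0 in all MBC libraries. The largest fold changes were those of Igkv7-33 (11.37, SE 0.59), Igkv12-89 (10.32, SE 0.78), Igkv14-126 (9.80, SE 0.44) and Igkv8-30 (9.03, SE 0.93). Each of these was at 0 in at least 1 MBC library, so the fitted changes depend on the pseudocount. Igkv7-33 was at 0, 0 and 0.57 TPM in MBCs and at 665 to 3384 TPM in the PC libraries.

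Genes of the surrogate light chain, which stands in for a light chain in precursor B cells, were close to absent. Vpreb2 was listed at 0 in all libraries, Vpreb1 did not exceed 0.17 TPM, and Igll1, the lambda-like component, was above 0 in PC replicate 4 alone, at 1.54 TPM. Vpreb3, whose product associates with newly made chains in the endoplasmic reticulum, was at 79.8, 33.2 and 174 TPM in MBCs and at 25.6 to 54.8 TPM in PCs, and in scaled TPM the groups overlapped (log2 fold change 0.33, limma, adjusted p = 0.727). Of the 8 genes of light chain recombination 6 were tested and 0 were called in either direction by limma, with 1, Prkdc, lower at an unadjusted p under 0.05. Rag1 and Rag2, which cut at the segments to be joined, did not exceed 1.71 and 4.57 TPM, and Rag2 was listed at 0 in all MBC libraries. Prkdc, a kinase of end joining, had a log2 fold change of -1.46 (limma, adjusted p = 0.0831). Without the library labelled MBC replicate 3, Prkdc (-1.71, limma, adjusted p = 0.0273) and Dclre1c, the nuclease Artemis (-2.0, adjusted p = 0.0127), were called lower in PCs.

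Of the 11 factors known to act on light chain enhancers or promoters, 2 were called higher and 4 lower in PCs. Over all genes tested, 6.41% were called higher and 2.14% lower. The median log2 fold change was -0.92 for the factors against 0.14 over all genes tested. Irf4, a regulator of PC fate that binds the lambda and kappa enhancers together with PU.1 (gene Spi1) or Spi-B, rose from 29.9, 12.0 and 11.4 scaled TPM in the 3 MBC libraries to 222, 174, 198 and 158 in the 4 PC libraries (log2 fold change 3.45, SE 0.39, limma, adjusted p = 5.4e-04). Spib fell from 76.1, 178 and 134 scaled TPM to 23.7, 16.2, 36.7 and 39.2 (log2 fold change -2.12, SE 0.44, adjusted p = 0.0158). Irf8, a relative of Irf4, fell by 1.91 on the log2 scale (SE 0.38, limma, adjusted p = 0.0145). Without PC replicate 2 neither Spib (-1.87, limma, adjusted p = 0.0515) nor Irf8 (-1.81, adjusted p = 0.0555) was called, and the factors called lower numbered 1, Rel. With a replicate block by number, Spib (adjusted p = 0.0579) and Irf8 (limma, adjusted p = 0.081) were not called, nor was Irf8 with a block by title code (adjusted p = 0.0743). With all libraries, Irf4 and its partner Spib moved in opposite directions between the groups.

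Rel, an NF-kappaB subunit, fell from 85.1, 72.3 and 49.5 scaled TPM to 7.98 to 11.3 (log2 fold change -2.70, SE 0.37, limma, adjusted p = 0.0017). Pou2f2, which encodes the octamer-binding factor OCT2, was called lower with all libraries (log2 fold change -1.65, SE 0.42, limma, adjusted p = 0.0413), and Pou2af1, which encodes its coactivator, was called higher (1.16, SE 0.29, adjusted p = 0.0394). Each of these calls was lost when any library other than MBC replicate 3 was left out, with adjusted p-values up to 0.135 for Pou2f2 and 0.105 for Pou2af1. The direction of Pou2af1 also depended on the scaling, at -0.17 with TPM as deposited and -0.42 with quantile normalization. Spi1 was not called (log2 fold change -1.39, limma, adjusted p = 0.0602) but passed the threshold with that library omitted, labelled MBC replicate 3 (-1.53, limma, adjusted p = 0.031). Tcf3, Pou2f1, Nfkb1 and Rela were not called.

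**Figure D5:**
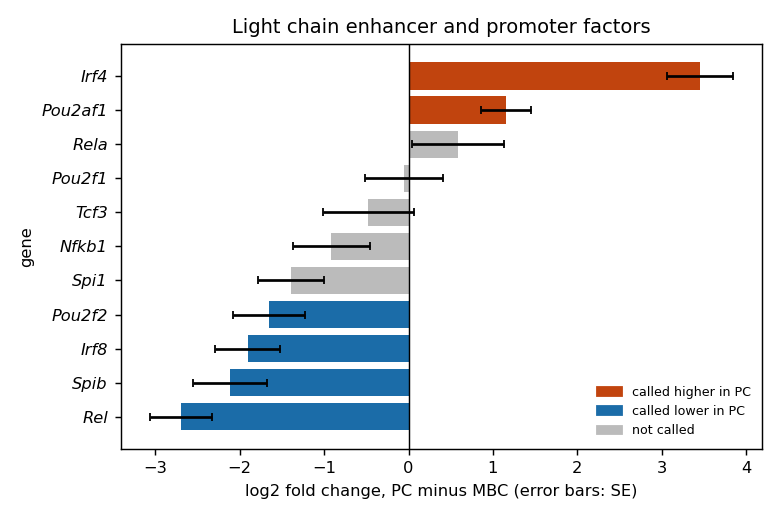
Log2 fold change (PC minus MBC, bars) with its standard error (lines) for the 11 enhancer and promoter factors, coloured by call in the limma fit. Irf4 and Pou2af1 lie to the right among the called genes, and Rel, Spib, Irf8 and Pou2f2 to the left.

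Among the 11 heavy chain and receptor partners, 7 were called higher and 0 lower by limma (8 and 1 at an unadjusted p under 0.05), where 6.41% of all genes and 83.4% of immunoglobulin genes, the class of most of this list, were called higher and 2.14% of all genes lower. Igha was not called with all libraries (4.81, limma, adjusted p = 0.061) but was when MBC replicate 3 was omitted (2.72, adjusted p = 0.0204). The 4 largest log2 fold changes were those of Ighg2c (8.11, SE 0.61), Ighe (7.84, SE 0.71), Jchain (6.88, SE 0.38) and Ighg2b (5.88, SE 0.49). Cd79a and Cd79b, the signalling subunits that hold the antigen receptor at the surface, were not called. Cd79a was at 638, 1040 and 374 scaled TPM in MBCs and 458 to 510 in PCs (log2 fold change -0.36, limma, adjusted p = 0.605), and Cd79b had a log2 fold change of -1.05 (adjusted p = 0.108). Under other scalings Cd79b was called lower in 3 alternatives and Cd79a in 2.

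The pattern of the light chains over the 7 libraries was compared with that of all genes tested, as Pearson's r of log2(scaled TPM + 1). Since all the points fall into the same pair of groups, the coefficients describe likeness only. Nearest to Igkc among other immunoglobulin genes were Ighg2b (r = 0.991), Ighv10-1 (0.991) and Igkv1-122 (0.987), and among other genes Trp53inp1 (0.995), Xbp1 (0.995), a transcription factor of the secretory programme, and Il7r (0.995). Nearest to the lambda constant sum were Igkv8-27 (0.993), Ighm (0.991) and Ighg2b (0.991), and outside the immunoglobulins Copb2 (0.994), a coat protein of Golgi vesicles, Sel1l (0.992), of the endoplasmic reticulum degradation machinery, and Stt3a (0.992), a subunit of the oligosaccharyl transferase.

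The labelled cell types were checked with their markers. Of the B lineage genes, Ms4a1 (CD20) was called lower in PCs (log2 fold change -2.57, limma, adjusted p = 0.0016), and Cd79a and Cd79b were not called. Of the 4 genes of the memory list, which adds Ccr6 to genes of the gate, only Ptprc (B220 and other CD45 forms) was called lower in PCs (-1.67, limma, adjusted p = 0.0255). Cd38 (-1.77, limma, adjusted p = 0.292), Pdcd1lg2 (-2.82, adjusted p = 0.0905) and Ccr6 (-3.85, adjusted p = 0.0749) were not called, and their groups overlapped through the library labelled MBC replicate 3, where Ccr6 was at 2.26 scaled TPM. Of the 3 genes of naive or mature B cells, Fcer2a (104 to 343 scaled TPM in MBCs and 7.95 to 15.7 in PCs) and Cr2 (63.8 to 148 and 3.64 to 7.19) were called lower in PCs, and Ighd was not. All 7 PC markers were called higher in PCs, and Sdc1 (CD138) was listed at 0, 0 and 0.12 TPM in MBC replicates 1 to 3. The summed TPM of the PC markers was 235 to 691 in MBCs and 8350 to 15835 in PCs. As a percentage of the mean TPM in PCs, the lambda constant sum in MBCs was 8.63%, 11.8% and 6.33%. Jchain (1.79%, 1.28% and 3.89%), Slpi (0.546%, 0.503% and 3.10%) and Sdc1 (at most 0.288%) lay below it in every MBC library, Xbp1 (17.7%, 13.9% and 12.3%) and Irf4 (41.0%, 13.4% and 17.6%) lay above it in every one, and Mzb1 (3.89%, 2.94% and 23.5%) and Prdm1 (24.6%, 0% and 5.25%) lay on either side. The highest Jchain was in the library labelled MBC replicate 3 and the highest lambda ratio in MBC replicate 2, which also held the most erythroid RNA (6713 TPM over 5 globin and heme genes, against 7.6 and 115 in the other MBC libraries). Among the MBC libraries Mzb1 and Slpi were also highest in the one labelled MBC replicate 3. Of 8 T cell genes 3 were tested and 2, Cd3e and Trac, were called higher in PCs, and the list summed to 0 to 5.10 TPM in MBCs and 10.7 to 43.4 TPM in PCs. The 5 myeloid genes summed to 4.76 to 43.0 TPM in MBCs and 1.37 to 5.17 TPM in PCs, and the 5 precursor B cell genes to at most 5.77 TPM. Without MBC replicate 2 the log2 difference in the lambda to kappa constant ratio was -0.68. The part of these other cells in the light chain ratios was not tested.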

How the data were processed

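The 7 libraries were assigned to groups and replicates by the sample descriptions. The authors deposited gene-level TPM, and the submitters' processing notes name STAR 2.5.2a, RSEM 1.3.0, DESeq2 1.18.1 and GRCm38, with no role stated. RNA was amplified with a Nugen kit. Ensembl IDs were matched to GENCODE M21 symbols (48349 of 48795). Ratios and shares used TPM as deposited and an exact two-sided permutation test, with p the share of 35 assignments that reach the observed absolute difference, adjusted by Benjamini-Hochberg over 9 measures.

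For single genes, TPM was divided by the median ratio to the geometric mean, genes at 1 TPM or more in at least 3 libraries were kept, and log2(scaled TPM + 1) was fitted with limma 3.58.1 in R 4.3.3 (trend, no covariate). A gene was called at an adjusted p below 0.05, over all tested, with a change of 1 or more in log2 either way. On simulated data, 85.9% of genes changed by 4 on the log2 scale and 26.5% of those changed by 2 were recovered, with 11 of 10576 unchanged genes called among 10793. TPM holds no read totals. Reads per TPM were estimated from the steps of low values of genes with a single transcript, of which 76.4% to 84.3% lay within 0.15 of a whole number of reads, against 30% by coincidence. Estimated reads cover counting error only.

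The 7 members and the gene lists were chosen with earlier results of these data known. All 7 members were named. In lists of 6 or fewer genes every gene above 0 was named, and in longer ones up to 4 called genes per direction with the largest change. A few further genes whose call depended on a library were named after their values were seen. Alternatives were other scalings, pseudocounts of 0.1 and 5, no filter, replicate blocks, the more frequent title code prefix, and each library left out. Replicate numbers were not taken to pair the libraries: the correlations of deviations from group means were 0.109, -0.04 and -0.08 for equal numbers, and 0.109, -0.004 and 0.222 for equal title codes. Pairs of unlike title codes ran from -0.176 to 0.152, so the highest value of all belonged to an equal code.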

Additional observations from a re-analysis of the deposited data

Results flagged for a closer look

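In 4 of 50 results examined over the 4 PC libraries, a lone library lay far from the rest by Dixon's gap test at the 95% level, which chance alone gives in about 1 of 20 groups, here 2.5. The MBC group, of 3 libraries, is too small for it.

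Iglc1 stood at 19978 scaled TPM in PC replicate 1, with the other PC libraries from 11804 to 12418. In TPM as deposited it was 12701 there, against 7941 to 10094. Single genes were examined in scaled TPM alone, so their flags may depend on the scaling. The smallest scaling factor of all libraries, 0.636, was that of PC replicate 1. In the same library Rag2 was 7.19 scaled TPM, against 0.123 to 1.32 elsewhere among PCs, and Lig4, the ligase of end joining, was 19.8, against 4.45 to 6.75. Igll1 was 2.15 scaled TPM in PC replicate 4 and was listed at 0 in every other PC library. With all other PC libraries at 0, a gene is flagged whatever its value. The flag of Igll1 was thus fixed in advance and adds nothing to the comparison of 4 with 2.5.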

How the results depend on the processing

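With a library left out, the lambda to kappa constant region difference lay between -1.18 and -0.68 on the log2 scale, the lambda variable to constant difference between 1.05 and 1.32, and the Iglv2 share difference between 11.3 and 17.5 percentage points. The direction was kept in every case, and with 6 libraries the exact test cannot pass 0.05. With a replicate block by number these differences were -0.99, 1.14 and 12.3, and by title code -0.85, 1.19 and 13.0 (exact permutation p = 0.25 over 3 pairs, the smallest possible). A p defined as double the smaller tail, chosen after seeing the data, left -0.93, 1.19 and 14.0 above 0.05 (exact permutation p = 0.0571). Within the more frequent prefix the lambda to kappa difference was -1.0. From variable genes it reversed to 0.13. Summing Iglc2 and Iglc3 turned the Iglc2 share difference to -5.79 percentage points, and summing Iglv1 and Iglv2 turned that of Iglv1 to 5.89, where the Iglv2 result was also no longer past 0.05.

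Of the 112 combinations of a member and an alternative, 111 kept the call and 1 lost it (Igkc without the filter, where the cause was not tested). All genes called higher and lower numbered 742 and 248 with all libraries, 472 and 3018 with TPM as deposited, 1014 and 448 within the prefix, 456 to 1624 and 93 to 881 with a library left out (the highest without the library labelled MBC replicate 3), 437 and 123 without a filter, 390 and 60 with a replicate block by number and 434 and 83 by title code, with 449 and 490 lower when immunoglobulin genes were left out or quantiles normalized. The median log2 fold change of all genes moved from 0.14 to -0.91, -0.08 and -0.15 under those 3 scalings and to 0.24 with a pseudocount of 0.1. The enhancer and promoter factors called higher were 1 in place of 2 under all 3 scalings, without a filter, under both blocks and within the prefix, and 1 to 2 with a library left out. Those called lower were 8 in place of 4 with TPM as deposited, 1 and 2 under the blocks, and 1 to 5 with a library left out. Heavy chain and receptor partners called lower were 2, 1 and 2 under the 3 scalings, in place of 0. Recombination genes called lower were 2 with TPM as deposited, 1 within the prefix and 0 to 2 with a library left out, and Iglc4 was called higher, as 1 of its list in place of 0, without MBC replicate 1 alone.

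Log2 fold changes that changed sign belonged to genes not called, apart from Pou2af1 (-0.17 as deposited, -0.42 with quantiles). With TPM as deposited, Lig4 was at -0.93, Rela at -0.63, Vpreb3 at -0.97 and Xrcc4 at -0.48. Lig4 was at -0.015 with immunoglobulin genes left out and between -0.47 and 0.89 with a library left out. With a library left out, the range was -1.22 to 0.27 for Ighd, -0.49 to 0.47 for Pou2f1, -0.87 to 0.17 for Tcf3, -0.17 to 0.80 for Vpreb3 and -0.64 to 1.52 for Xrcc4. The cause of these changes was not tested.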
